A study of Arabidopsis thaliana with 20 samples.

Results

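The piece of stem lying 7-9 cm below the tip was the lowest one sampled from 10 cm inflorescence stems of Arabidopsis thaliana, ecotype Ler, and 4 of the 20 arrays of the series measured it. These 4 arrays were chosen by their titles, which set the 7-9 cm section over the 0-2 cm section. On each spotted array, labelled cDNA of the 7-9 cm section was hybridised together with labelled cDNA of the uppermost 2 cm of 5 cm stems, the common reference of all 20 arrays. The 10 cm stems were cut on day 14 and the 5 cm stems on day 12 after the plants, raised for 8 weeks with 8 h of light, had been moved to 16 h of light. Flowers, siliques, cauline leaves and side branches were discarded from all stems, and the labels name no mutant and no treatment other than the change of day length and 1 application of fertilizer. Position in the stem, stem length and harvest day therefore differed together between the 7-9 cm section and the reference and cannot be told apart. The 5-7 cm and the 3-5 cm sections of the 10 cm stems, with 4 arrays each against the same reference, served for comparison. Nothing in the labels tells whether the replicates are separate plants, pools or repeats of 1 extract, and p-values here reflect only the spread between arrays, which may be technical.

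As background, an inflorescence stem grows at its upper end. Cells divide in and below the apical meristem and then elongate, and older cells further down stop elongating, while those of xylem and interfascicular fibres thicken and lignify their walls. Expansins and xyloglucan endotransglucosylases loosen primary walls during growth, whereas lignin is polymerised by peroxidases and laccases from monolignols, which cells also hold as glucosides.

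The values are the authors' log ratios of section over reference. No label gives their base, which was taken as 2, and a value of 1 stands for a level 2-fold that of the reference. The 4 arrays carried 25692 to 25728 values each, with medians between -0.03 and 0.03, and 25720 probes were tested. Of these, 8138 probes carried a gene name, from 7871 loci. Replicates 1 and 3 had the section in Cy3 and replicates 2 and 4 in Cy5 by their source names, whereas the descriptions of replicates 2 and 4 name Cy3. Replicates 1 and 2 were scanned with the photomultipliers at 62 and 60, and replicates 3 and 4 at 63 and 60, as were the same-numbered 5-7 cm arrays. All 3-5 cm arrays were scanned at 62 and 61, so that scanner setting and section cannot be told apart in the comparison with 3-5 cm.

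Some deposited values were piled up at 1 number on each of 3 arrays. On replicate 2, 511 probes (1.987% of its values) lay within a window 0.0015 wide at -0.025, where the neighbouring values gave an expectation of 22.4. On replicate 1, 131 probes lay at 0.559 (16.4 expected), and on replicate 4, 197 probes at -0.321 (20.5 expected). Replicate 3 was deposited in steps of 0.1 and could not be assessed. Of the tested probes, 436 were in a pile-up on 1 of these arrays, 71 on 2 and 87 on all 3. The pile-up of replicate 2 took 7 of 21 photosynthesis genes, against 146 of 7871 named loci, and the count and median of that list are given below with and without such values. The 3-5 cm arrays had pile-ups too, at 0.333, 0.01, 0.854 and 0.897 on replicates 1 to 4. So had 5-7 cm replicates 1, 3 and 4, at 0.326, 0.646 and -0.31.

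**Figure D1:**
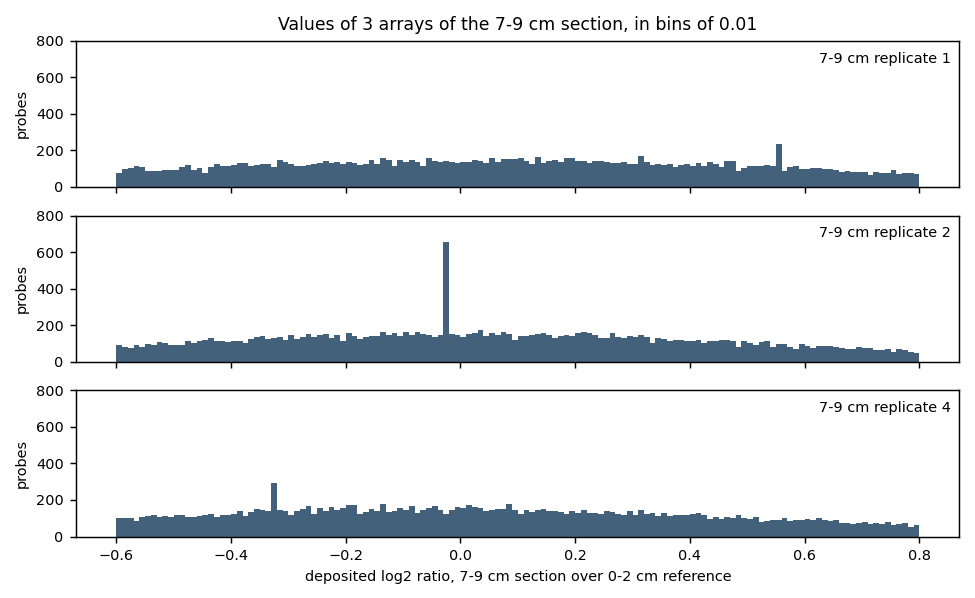
Histograms of the deposited log2 ratios (x axis, 7-9 cm section over 0-2 cm reference, from -0.6 to 0.8) on 3 of the 4 arrays, as the number of probes (y axis) in bins of 0.01; replicate 3, in steps of 0.1, is not drawn. A single tall bin stands at the pile-ups near 0.559 on replicate 1, -0.025 on replicate 2 and -0.321 on replicate 4, highest on replicate 2.

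A gene's value is that of 1 probe, and probes of a locus did not always go together. Among 229 loci with more than 1 tested probe, 43 had all probes called in the same direction, 77 had none called, 95 had some called and some not, and 14 had probes called in opposite directions. Few markers of cell types had a probe named here. Of the secondary wall and xylem list only GUT2, of xylan synthesis, was measured, of the phloem list only OPS and of the list of meristem and flower markers only YAB3, a regulator of organ polarity. No probe named here stood for the cambium, epidermis or starch sheath, so the tissue make-up of the section was not checked further. GUT2 had 0.42, 0.52, 0.1 and -0.73 on the 4 arrays, above 0 on 3 of them and below on replicate 4, and it was not called (fitted mean 0.08 ± 0.23, limma adjusted p = 0.819).

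Against the tip of the younger stems, the 7-9 cm section differed at 11163 of the 25720 probes (43.4%; adjusted p under 0.05 from limma), with 5575 (21.7%) higher and 5588 (21.7%) lower. A change of at least 2-fold accompanied the call at 3718 probes (14.5%), 1780 (6.92%) of them higher and 1938 (7.53%) lower. Of 11139 called probes measured on all 4 arrays, 9844 had the same sign on each, and replicate 4 stood against the fitted direction most often, at 432 probes. For calls of at least 2-fold, 3636 of 3710 probes had the same sign on the 4 arrays. Fits to arrays of 1 scanner setting called 7116 probes with 62 and 60 and 6646 with 63 and 60. Taking 1 probe for each of the 7871 named loci, 1679 were higher, 1703 lower and 4489 not called, with a median log2 ratio of 0.00. In the sentences that follow, a gene that rose or fell passed this test, and values are log2 ratios over the reference. The error of a fitted mean is its SE from the limma model. It rests on the probe's residual spread over the arrays of all sections, as adjusted by limma. It does not measure the spread of the 4 arrays of the 7-9 cm section alone. The reference RNA was common to all arrays, so its own spread is not in these errors.

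The steepest rises were shared by genes that the annotation used here names only by locus and by a few named enzymes. AT3G03960 had 5.69, 4.70, 5 and 4.94, a fitted mean of 5.08 ± 0.15 (limma adjusted p = 1.63e-15). All 4 arrays were close together, and the locus had the smallest adjusted p among the 12 largest rises. AT1G03740 averaged slightly more, 5.28 ± 0.50, from 6.05, 5.71, 6.1 and 3.26. Here replicate 4 stood well below the other 3 arrays. GSTF3, a glutathione S-transferase, had 5.06, 4.06, 4 and 4.76 (fitted mean 4.47 ± 0.22), high on every array. GSTF2 is a close copy at another place in the genome, and whether the probe separates the pair was not tested. GAMMA-VPE, a vacuolar processing enzyme that matures and breaks down proteins in the vacuoles of vegetative tissue, had 4.38, 2.32, 4.3 and 4.61 (fitted mean 3.901 ± 0.24). It was lowest on replicate 2, but above 0 on all arrays. Among loci without a name, AT1G80170 had 4.02, 3.85, 3.8 and 3.99 (fitted mean 3.92 ± 0.15) and AT1G64370 had 4.64, 5.79, 3.8 and 5.88 (fitted mean 5.03 ± 0.34). AT1G80170 varied least over the 4 arrays of these loci. AT2G32870 and AT2G32880, which lie next to each other, averaged 4.17 ± 0.31 and 4.92 ± 0.31, and both were lowest on replicate 4. The remaining rises of the 12 were AT1G19530 (4.76 ± 0.31), AT2G31930 (4.45 ± 0.47), AT3G55600 (4.24 ± 0.22) and AT2G37130 (4.19 ± 0.38), the last of which rose on its other probe too (4.77 ± 0.43).

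The deepest falls included a regulator of phloem and proteins of plastid and wall. OPS, which promotes the early differentiation of phloem cells, had -4.61, -3.07, -4.5 and -4.56 (fitted mean -4.19 ± 0.19, limma adjusted p = 8.49e-13). All arrays were far below 0, replicate 2 least so. A different probe of OPS gave -0.46 ± 0.17 (limma adjusted p = 0.0341), the same direction at a much smaller size. In sections of whole stem, fewer cells of a type and less of an RNA per cell cannot be told apart. Cpn60beta2, a chaperonin subunit of plastids, had -3.41, -2.55, -3.4 and -3.07 (fitted mean -3.11 ± 0.30), with replicate 2 nearest 0. ARPN, a plantacyanin, had -3.54, -4.31, -3.8 and -1.74 (fitted mean -3.35 ± 0.29), and replicate 4 stood apart from the rest. DRT100, a protein with leucine-rich repeats, had -3.12, -3.08, -2.6 and -2.98 (fitted mean -2.95 ± 0.16). Its 4 arrays were within 0.52 of each other. AT1G63290 fell furthest of the loci chosen by the rule, with -3.38, -5.37, -4 and -4.04 (fitted mean -4.197 ± 0.29). AT3G11630 was uneven, with -6.61, -2.19, -1.5 and -1.14: the fitted mean of -2.86 ± 0.47 became -1.65 without replicate 1, still called (limma adjusted p = 2.44e-06). The other falls of the 12 were AT2G27080 (-4.13 ± 0.28), AT1G12570 (-3.68 ± 0.38), AT5G11420 (-3.53 ± 0.25), AT3G16370 (-3.47 ± 0.24), AT1G62510 (-2.89 ± 0.15) and AT1G12845 (-2.78 ± 0.33).

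**Figure D2:**
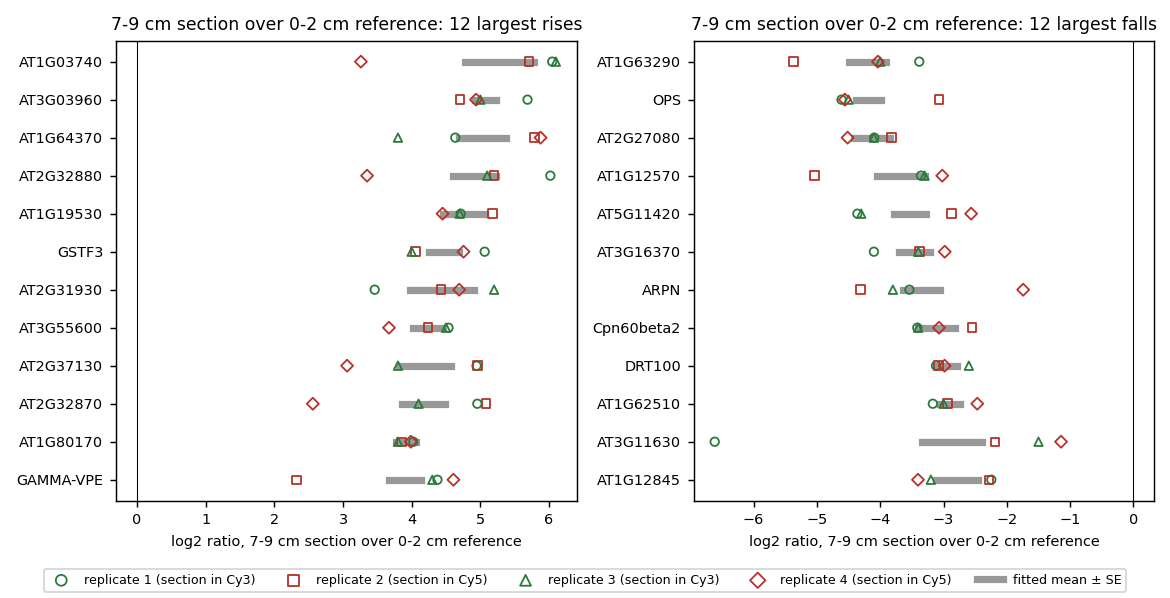
Log2 ratios (x axis, 7-9 cm section over 0-2 cm reference) of the 12 largest rises (left) and the 12 largest falls (right). Each symbol is 1 array (n = 4 arrays), coloured by the dye of the section. The grey bar is the fitted mean ± SE, with the SE resting on the arrays of all sections. All arrays of all 24 loci lie on the same side of 0, which the choice of loci required; AT1G80170 is tight around 3.92, while AT3G11630 is spread by replicate 1 at -6.61.

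Gene groups are given by the number of members called and by the median of the members' fitted log2 ratios, to be read against the 21.7% of all probes called in each direction and the median of 0.00 over named loci. The groups were chosen with earlier results of these data known, and many members named below were picked after their values were seen, so the counts describe the section and test nothing about a group.

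Wall-loosening genes were mostly lower in the 7-9 cm section. Of 11 expansins and expansin-like genes, 7 fell, 1 rose and 3 were not called (median -0.66). The median was -0.70 on arrays scanned at 62 and 60 (6 fell, 1 rose) and -0.62 at 63 and 60 (5 fell, 0 rose). EXPA8 had -2.28, -2.99, -2.3 and -0.996 (fitted mean -2.14 ± 0.23, limma adjusted p = 1.35e-07), and all arrays were below 0, replicate 4 least. EXPB1 had -1.81, -1.77, -1.3 and -0.91 (fitted mean -1.45 ± 0.15), low on every array. EXPA7 had -1.300, -1.23, -1.2 and -0.85 (fitted mean -1.14 ± 0.14), with little spread. EXLA2 was less even, with -0.21, -2.21, -0.9 and -0.93 (fitted mean -1.06 ± 0.21, and -0.70 without replicate 2, limma adjusted p = 0.00756). EXPB4 went the other way, with 0.76, 0.67, 0.5 and 0.23 (fitted mean 0.54 ± 0.13). Xyloglucan endotransglucosylases cut and rejoin xyloglucan, and 2 of the 5 measured rose and 2 fell. XTH33 fell, with -0.46, -1.26, -1.5 and -0.50 (fitted mean -0.93 ± 0.17), whereas EXGT-A3 rose, with 0.95, 1.71, 0.7 and 0.36 (fitted mean 0.93 ± 0.17). The signs were the same on all 4 arrays for both.

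Among genes that build wall polysaccharides, 3 of 5 cellulose synthase-like genes fell and none rose (median -1.21). CSLC04 and ATCSLC08, of the family that makes the glucan chain of xyloglucan, averaged -1.21 ± 0.20 and -1.53 ± 0.14. CSLA03, of the glucomannan synthases, had -1.74, -1.96, -1.1 and -1.27 (fitted mean -1.52 ± 0.19), below 0 throughout. Trichome birefringence-like proteins, a family that acetylates wall polysaccharides, were divided: 5 of 17 rose and 2 fell (median 0.00). TBL37 had 1.95, 1.92, 2 and 1.94 (fitted mean 1.95 ± 0.15), nearly the same on each array. TBL45 had -2.64, -2.44, -3 and -2.82 (fitted mean -2.72 ± 0.14), likewise tight but on the other side of 0, and TBL39 fell to -2.19 ± 0.17. TBL33 rose to 1.51 ± 0.26 with its highest value, 2.44, on replicate 2. Among 23 glycosyl hydrolases 5 rose and 6 fell (median 0.05). The endoglucanase genes GH9B6, with -1.66, -1.79, -1.7 and -1.58 (fitted mean -1.68 ± 0.16), and GH9C2, with -1.397, -1.78, -1.1 and -1.59 (fitted mean -1.47 ± 0.16), fell on all arrays. The top of the same list was held by the beta-glucosidases described next.

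Genes for monolignol glucosides and related phenolics were higher: 6 of 7 rose, none fell, and the median was 1.10. The median was 1.49 on arrays at 62 and 60 (5 rose) and 0.76 on arrays at 63 and 60 (4 rose). BGLU45, a beta-glucosidase that releases monolignols from their glucosides, had 3.34, 5.25, 2.9 and 1.74 (fitted mean 3.31 ± 0.34, limma adjusted p = 8.13e-08). BGLU46, its neighbour with the same activity, had 3.06, 4.599, 2.4 and 2.71 (fitted mean 3.19 ± 0.34). Both were well above 0 on every array and highest on replicate 2. The other probe of BGLU46 gave 0.03 ± 0.20 (limma adjusted p = 0.928), so the rise of BGLU46 rests on 1 of its 2 probes. The neighbouring genes are similar copies, and cross-hybridisation between them was not tested. CCOAMT, a caffeoyl-CoA O-methyltransferase gene, had 1.71, 4.67, 0.8 and 0.72 (fitted mean 1.98 ± 0.35). Replicate 2 was far above the other 3 arrays, and the mean was 1.2 without it (limma adjusted p = 0.000599). GT72B1 and UGT72E1, which attach glucose to monolignols and related phenols, averaged 1.10 ± 0.16 and 0.91 ± 0.24. The call of UGT72E1 ended without replicate 4 (0.65, limma adjusted p = 0.0565). Over the wider family of 33 UDP-glycosyltransferases, 9 rose and 1 fell (median 0.23). UGT71C2 was the highest of them, with 0.74, 0.93, 1.1 and 1.67 (fitted mean 1.11 ± 0.19). UGT71C1, UGT71C4 and UGT71C5 of the same subfamily rose to 0.80 ± 0.17, 0.74 ± 0.15 and 0.70 ± 0.14. Of 5 class III peroxidases named in RefSeq 2 rose and 2 fell. PRXCA had -1.51, -3.99, -1.4 and -1.92 (fitted mean -2.204 ± 0.34), lowest on replicate 2. PRXR1 had 1.28, -0.03, 1.3 and 2.18 (fitted mean 1.18 ± 0.30), its replicate 2 value lay in the pile-up, and its other probe averaged 0.49 ± 0.18 (limma adjusted p = 0.0298). Without replicate 4, PRXR1 was no longer called (0.74, limma adjusted p = 0.0638).

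Cell division genes were lower. Of 22 genes of spindle, checkpoint, DNA replication and chromatin in dividing cells 15 fell, 2 rose and 5 were not called (median -0.70). This count leaned on replicate 2, without which 9 fell, 3 rose and the median was -0.47. At settings 62 and 60, 14 fell (median -0.89), against 6 at 63 and 60 (median -0.34). AUR2, an Aurora kinase of mitosis, had -2.37, -2.08, -1.6 and -2.104 (fitted mean -2.04 ± 0.18, limma adjusted p = 1.44e-08). HTB2, a histone H2B gene, had -2.098, -1.70, -2.1 and -1.62 (fitted mean -1.88 ± 0.17), and PRL, which encodes the replication licensing factor MCM7, had -1.43, -1.77, -1.7 and -2.52 (fitted mean -1.86 ± 0.29). All 3 genes were far below 0 on every array. BUB3.1, of the spindle checkpoint, averaged -1.83 ± 0.24. The 2 members that rose were PSF2, a subunit of the GINS replication complex, and ATMAP65-6, a microtubule-binding protein. PSF2 had 1.61, 1.196, 1.6 and 1.604 (fitted mean 1.501 ± 0.14). ATMAP65-6 had 2.51, 2.13, 2.3 and 1.92 (fitted mean 2.22 ± 0.16), close to 2 on all arrays.

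Genes for chlorophyll and other tetrapyrroles fell on most steps of the pathway that were measured. Of 10 genes 7 fell and none rose (median -1.04), and 6 fell in each of the single-setting fits (medians -0.98 at 62 and 60 and -1.05 at 63 and 60). HEMB1, aminolevulinate dehydratase, had -1.27, -1.46, -1.4 and -1.31 (fitted mean -1.36 ± 0.18), nearly equal on the 4 arrays. HEME1, uroporphyrinogen decarboxylase, had -2.67, -2.15, -1.7 and -2.29 (fitted mean -2.202 ± 0.21, limma adjusted p = 2.37e-08). CHLM, the methyltransferase of the chlorophyll branch, had -1.25, -0.95, -1.3 and -1.22 (fitted mean -1.18 ± 0.18). These 3 enzymes act at successive stages, and each was below 0 throughout. HEME2, the other uroporphyrinogen decarboxylase gene, averaged -1.41 ± 0.34. PORB, which reduces protochlorophyllide in light, had -2.21, -0.03, -2.1 and -1.67 (fitted mean -1.502 ± 0.27); its replicate 2 value was in the pile-up, and with pile-up values left out the mean was -2.02 (limma adjusted p = 2.78e-06).

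Photosynthesis genes were lower in part. Of 21 genes of the light reactions and carbon fixation 12 fell, 1 rose and 8 were not called (median -0.45). With pile-up values left out the count was also 12 and the median was -0.54. At 62 and 60, 6 fell (median -0.47), and at 63 and 60, 8 fell (median -0.47). CaS, a calcium-sensing protein of thylakoids, had -2.06, -1.95, -2.2 and -1.69 (fitted mean -1.97 ± 0.13, limma adjusted p = 2.34e-10). LHCB4.3, a light-harvesting antenna protein, had -1.595, -1.95, -1.6 and -1.78 (fitted mean -1.73 ± 0.16). PRK, phosphoribulokinase of the Calvin cycle, had -1.202, -1.15, -0.9 and -1.18 (fitted mean -1.11 ± 0.16). The arrays were close together for all 3. CRR41, needed for the chloroplast NDH complex, averaged -1.52 ± 0.19. LHCB4.1 and LHCB4.2, close relatives of LHCB4.3, were not called (0.27 ± 0.30 and 0.05 ± 0.19). The probe of LHCB4.1 was at the pile-up value on replicates 1 and 2 (0.28 with those left out). The other probe of LHCB4.1, also near the pile-up value on replicate 2, gave -0.31 ± 0.18 (limma adjusted p = 0.176). RCA, rubisco activase, had -1.73, -0.02, -1.4 and -0.84, PSAN, a subunit of photosystem I, had -1.41, -0.03, -1.6 and -1.23, and ATPC1, of the chloroplast ATP synthase, had -1.08, -0.02, -1 and -0.70. Each of these was at the pile-up value on replicate 2 and lower on the other 3 arrays. Their fitted means were -0.999 ± 0.23, -1.07 ± 0.21 and -0.70 ± 0.14, and with pile-up values left out they were -1.29, -1.38 and -0.85. PIFI, which acts in electron flow around photosystem I, was the member that rose, with 1.05, 0.80, 0.7 and 0.29 (fitted mean 0.71 ± 0.15).

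More redox and ascorbate genes fell than rose. Of 11 genes in a list of thioredoxins and other redox enzymes, ascorbate peroxidases included, 6 fell and 1 rose (median -0.55). THX, thioredoxin x of plastids, had -1.62, -0.58, -2.3 and -1.52 (fitted mean -1.51 ± 0.25), least low on replicate 2. Of 6 genes that make or recycle ascorbate 4 fell and 1 rose (median -0.81). VTC4, a phosphatase of ascorbate synthesis, had -1.45, -0.82, -1.1 and -1.298 (fitted mean -1.17 ± 0.19), below 0 on every array.

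Genes that break down amino acids were higher in the 7-9 cm section. Of 8 genes for the breakdown of branched-chain amino acids and lysine 6 rose and none fell (median 0.70; medians 0.66 at 62 and 60 and 0.75 at 63 and 60). IVD, isovaleryl-CoA dehydrogenase of the leucine pathway, had 3.01, 3.166, 2.7 and 2.57 (fitted mean 2.86 ± 0.18, limma adjusted p = 6.68e-11). MCCA, the biotin-carrying subunit of methylcrotonyl-CoA carboxylase in the same pathway, had 1.53, 1.59, 1.4 and 1.22 (fitted mean 1.44 ± 0.13). AT4G33150, which carries the name of the lysine-degrading lysine-ketoglutarate reductase in RefSeq, had 3.33, 2.101, 2.9 and 2.78 (fitted mean 2.78 ± 0.18). All 3 were well above 0 on every array.

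Recycling of cell contents showed a like direction in autophagy genes and no common direction in proteases. Of 4 genes of autophagy conjugation 3 rose. ATG8H, ATG8E and ATG8D encode ubiquitin-like proteins that are attached to the autophagosome membrane. ATG8H had 1.98, 1.70, 1.6 and 1.45 (fitted mean 1.68 ± 0.15) and ATG8E had 2.13, 1.08, 1.5 and 1.65 (fitted mean 1.59 ± 0.17). ATG8D averaged 1.12 ± 0.19, and all 3 were above 0 on the 4 arrays. ATG3, the enzyme that attaches them to lipid, had 0.68, -0.60, 0.9 and -0.90: 2 arrays above and 2 below 0, and no call (fitted mean 0.02 ± 0.17). The split followed the dye by source name, with the Cy3 arrays above 0 and the Cy5 arrays below. The fitted dye effect of ATG3, Cy5 minus Cy3, was -1.40 (limma adjusted p = 7.82e-06). Of 22 proteases 5 rose and 8 fell, and without replicate 2, 3 or 4 the number that fell was 5. BETA-VPE, a relative of GAMMA-VPE, had 1.80, 0.87, 1.4 and 1.01 (fitted mean 1.27 ± 0.14), above 0 on all arrays. In the ubiquitin pathway 10 of 25 conjugating enzymes, U-box ligases and ubiquitin proteases rose and 5 fell (median 0.31), and 3 fell without replicate 2. PUB24, a U-box ligase, had 2.19, 1.99, 1.7 and 0.28 (fitted mean 1.54 ± 0.28), with replicate 4 much lower than the others.

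Among transporters, 4 of 6 SWEET and other sugar carriers rose and none fell (median 0.56). SWEET1 had 1.45, 1.24, 0.9 and 0.43 (fitted mean 1.01 ± 0.17) and SWEET2 had 0.98, 1.23, 1.4 and 0.25 (fitted mean 0.97 ± 0.22), both lowest on replicate 4. In the NRT1/PTR family of nitrate, peptide and hormone carriers, 3 of 9 rose and 3 fell, but only 1 fell without replicate 1 or 2. Its highest member was AT1G72120, with 2.83, 2.26, 2.6 and 3.04 (fitted mean 2.68 ± 0.20), high on every array, followed by AT1G33440 (1.47 ± 0.19).

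Genes known from cold, dehydration and abscisic acid responses were higher in part. Of 14 genes 7 rose, 1 fell and 6 were not called (median 0.32; medians 0.29 at 62 and 60 and 0.39 at 63 and 60). LTI30, a dehydrin, had 3.172, 3.05, 2.3 and 3.11 (fitted mean 2.91 ± 0.13, limma adjusted p = 8.49e-13), lowest on replicate 3. HIS1-3, a linker histone induced by drought, had 3.57, 3.099, 2.3 and 2.63 (fitted mean 2.90 ± 0.23). XERICO, a RING-type protein that raises abscisic acid levels, had 0.99, 1.29, 1.2 and 1.44 (fitted mean 1.23 ± 0.13). COR47 and AT1G54410, also dehydrins, were at the pile-up value on replicate 2. Their fitted means were 0.73 ± 0.17 and 1.15 ± 0.25, and 0.99 and 1.62 with pile-up values left out. DI19, named for its induction by drought, rose on both of its probes (1.86 ± 0.21 and 1.63 ± 0.31). DI21, another gene named for induction by drought, went against the list with -2.44, -2.32, -2.8 and -2.97 (fitted mean -2.63 ± 0.19), far below 0 on all arrays. KIN1, KIN2, COR15A and COR15B, classic cold-response genes, were not called, at -0.39 ± 0.28, -0.46 ± 0.22, -0.11 ± 0.26 and -0.08 ± 0.23. KIN1 was at the pile-up value on replicate 2, and its mean without such values is not given here. The arrays disagreed in sign for COR15A (0.58, -0.66, -1.4 and 1.05) and COR15B (0.23, 0.13, -0.4 and -0.29). In the endoplasmic reticulum, 5 of 8 stress and folding genes rose and 1 fell (median 0.55). DER2.2, a derlin, had 1.05, 1.54, 1.3 and 1.41 (fitted mean 1.33 ± 0.15), whereas the calreticulin gene CRT1b had -1.64, -1.68, -1.7 and -1.202 (fitted mean -1.56 ± 0.14).

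Hormone genes were few, and their lists held rises and falls. GID1A, a gibberellin receptor, had 1.15, 1.59, 1 and 1.70 (fitted mean 1.36 ± 0.16), at least 1 on all arrays. EIN3, a transcription factor of ethylene signalling, had 1.53, 0.64, 0.9 and 0.98 (fitted mean 1.01 ± 0.16). OPCL1, an enzyme of jasmonate synthesis, had 1.47, 1.05, 0.9 and 1.63 (fitted mean 1.26 ± 0.15). All arrays of these 3 genes were above 0. OPCL1 was the only member that rose of 6 jasmonate and salicylate genes (median -0.20). BSMT1, a methyltransferase of salicylate and benzoate, fell to -0.57 ± 0.22 (limma adjusted p = 0.0431), a call that ended without replicate 2, 3 or 4 (limma adjusted p of up to 0.137). Of 4 cytokinin genes none rose, and 1 fell, the response regulator ARR15 (fitted mean -0.83 ± 0.13), with 2 falling without replicate 2. Of 6 auxin response genes 2 rose and 1 fell (median 0.05), with IAA29 at 0.70 ± 0.22 and IAA20 at -0.73 ± 0.19, both of the family of auxin response repressors. Only 1 of them rose without replicate 1 or 3 and none without replicate 2 or 4. Of 6 genes in a list of GH3 acyl amidases, most of which conjugate auxin to amino acids, with LBD16, 4 rose and none fell (median 0.62), but only 1 rose on the arrays at 62 and 60 against 4 at 63 and 60. LBD16, an auxin-induced transcription factor, had 1.89, 1.06, 1.3 and 0.99 (fitted mean 1.31 ± 0.17), and GH3.3 averaged 0.998 ± 0.20. Of 8 RALF peptides and receptors of the CrRLK1L family 3 rose, 1 fell and 4 were not called (median 0.10). FER, a receptor kinase that binds RALF peptides and senses the wall, had 1.66, 2.13, 2.1 and 1.78 (fitted mean 1.92 ± 0.20), and the peptide gene RALFL18 had 1.28, 1.07, 1.1 and 0.91 (fitted mean 1.09 ± 0.14). Both were above 0 on the 4 arrays, as was the receptor kinase gene ANX1 (0.96 ± 0.22). The peptide gene RALFL34 fell, with -1.32, -1.93, -0.3 and -0.33 (fitted mean -0.97 ± 0.24), and was no longer called without replicate 2 (-0.61, limma adjusted p = 0.0562).

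Among regulators of growth and time, 3 of 19 organ and meristem growth regulators rose and 7 fell (median -0.14), and without replicate 2 the counts were 2 and 5. YAB3 had -0.71, -0.97, -0.8 and -1.57 (fitted mean -1.01 ± 0.15), lowest on replicate 4, and its relative YAB2 averaged -0.67 ± 0.13. LAS, required for axillary meristems, rose, with 0.51, 0.71, 0.8 and 0.63 (fitted mean 0.66 ± 0.13). TCP15, which restrains cell proliferation, had 2.55, 1.28, 2.1 and 2.02 (fitted mean 1.99 ± 0.14), but its other probe gave -0.20 ± 0.13 (limma adjusted p = 0.246). GI, a component of the circadian clock and the only clock gene with a probe named here, had 1.296, 0.99, 1.4 and 1.44 (fitted mean 1.28 ± 0.12). The labels give no time of day for the harvests, which was not tested. Of 34 MADS box genes 4 rose, 5 fell and 25 were not called, against 21.7% of all probes in each direction. Without replicate 2 the number that fell was 2, without replicate 1 or 3 it was 3, and without replicate 4 the number that rose was 2.

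**Figure D3:**
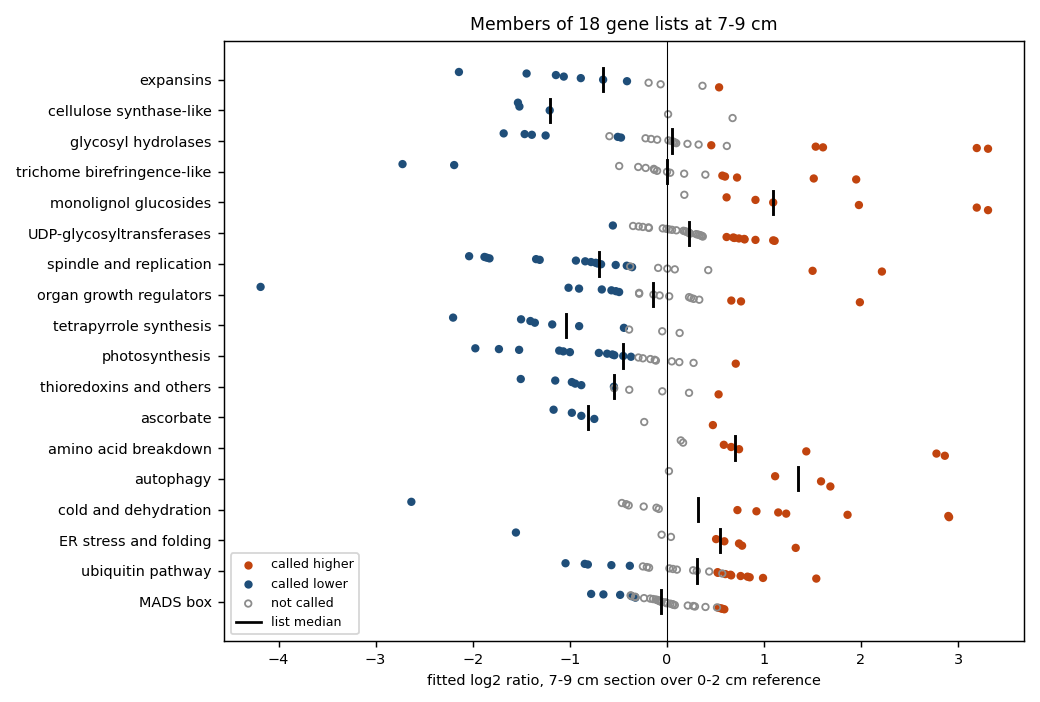
Fitted log2 ratios (x axis, 7-9 cm section over 0-2 cm reference, n = 4 arrays) of the members of 18 gene lists, 1 point per gene; filled points passed an adjusted p of 0.05 in limma (orange higher, blue lower), open points did not, and black ticks are list medians. Expansin, spindle, tetrapyrrole and photosynthesis members lie mostly left of 0, and monolignol glucoside and amino acid breakdown members right of it; OPS at -4.19 is the lowest point.

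The next comparison asked what distinguished the 7-9 cm section from the 5-7 cm section directly above it on the same stems. The sections could hardly be told apart probe by probe: 1 of 25720 probes (0.00389%) was called, and none with a gene name. The unnamed probe had -1.27, -1.16, -0.9 and -1.18 in the 7-9 cm section, against 0.70, 1.0, 0.71 and 0.74 in the 5-7 cm section (difference -1.92 ± 0.27, limma adjusted p = 0.0143). The arrays of the sections did not overlap. Unadjusted, 1211 probes (4.708%) had a p under 0.05, and 88 probes (0.342%) differed by at least 2-fold. The median absolute difference was 0.16, and the median probe's 95% interval, before adjustment, reached 0.51 to either side. With 4 arrays a section, differences below about that size were not detectable at such a probe. Larger ones could also go uncalled after adjustment, as of the 88 probes only 1 was called. The call of this probe was lost without 7-9 cm replicate 1, 2 or 4 and without 5-7 cm replicate 2, 3 or 4. Without 7-9 cm replicate 4 a different probe was called, and 2 probes were called without 7-9 cm replicate 3 and 3 without 5-7 cm replicate 1, this one included in both. Within the arrays at 62 and 60 no probe was called, nor within those at 63 and 60. Both comparisons with the reference share its RNA, so the sections' values are given side by side only.

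Intervals for this difference are given for several genes named above, chosen after their values were seen. For ATG8H the difference of 7-9 cm minus 5-7 cm was 0.05 (95% interval -0.38 to 0.48), for MCCA -0.10 (95% interval -0.49 to 0.29), for HTB2 0.07 (95% interval -0.44 to 0.57) and for CHLM -0.08 (95% interval -0.60 to 0.44). A change of 2-fold in either direction lies outside each of these intervals. For DRT100 the difference was -0.59 (95% interval -1.07 to -0.11), for LTI30 0.64 (95% interval 0.25 to 1.04) and for CaS -0.65 (95% interval -1.04 to -0.25), with intervals on 1 side of 0 but no call after adjustment (the lowest limma adjusted p of a named gene was 0.35). AT1G03340 came nearest among named loci, with 1.89, 1.92, 2.6 and 1.03 in the 7-9 cm section, against -0.32, -0.6, 1.24 and 0.58 in the 5-7 cm section (difference 1.64 ± 0.36, limma adjusted p = 0.35). The highest 5-7 cm array lay above the lowest 7-9 cm array. XTH33 had -0.46, -1.26, -1.5 and -0.50 in the 7-9 cm section, against -0.29, 0.1, 0.52 and 0.24 in the 5-7 cm section (difference -1.07 ± 0.24, limma adjusted p = 0.352), and these arrays did not overlap. Over all probes 477 of 25518 (1.869%) did not overlap between the sections.

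The section 3-5 cm below the tip lies higher up, with the 5-7 cm section between. Here 2283 of 25720 probes (8.88%) were called, with 962 (3.74%) higher and 1321 (5.14%) lower in the 7-9 cm section. Among the 8138 named probes 658 (8.09%) were called, 287 (3.53%) higher and 371 (4.56%) lower. Without 7-9 cm replicate 3 the count was 1486. The title and the description give replicate 1 of the 3-5 cm section like the others, but its source name gives a stem of 5 cm, and without it the count was 1598. Among the 5575 probes above the reference at 7-9 cm, 607 were also above 3-5 cm and 185 below it. Of the 5588 probes below the reference, 800 were also below 3-5 cm and 120 above it. At 155 of the probes called between 7-9 cm and 3-5 cm, the calls over the reference also had opposite signs in these sections. Of these, 113 were lower at 7-9 cm.

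Among the wall genes given here, EXPA8 and XTH33 turned from above the reference at 3-5 cm to below it at 7-9 cm. EXPA8 had -2.28, -2.99, -2.3 and -0.996 in the 7-9 cm section, against 2.16, 2.12, 1.88 and 2.19 in the 3-5 cm section. It was below the reference on each 7-9 cm array and above it on each 3-5 cm array, a difference of -4.23 ± 0.32 (limma adjusted p = 4.83e-08). XTH33 likewise had -0.46, -1.26, -1.5 and -0.50 in the 7-9 cm section, against 2.25, 2.099, 2.002 and 1.95 in the 3-5 cm section, a difference of -3.01 ± 0.24 (limma adjusted p = 1.19e-07). Of the 11 expansins 4 were lower than at 3-5 cm and none higher, and of the 5 cellulose synthase-like genes 3 were lower. Of these, CSLC04 was at -1.31 ± 0.28. The calls of the other two ended without single arrays: ATCSLC08 without 7-9 cm replicate 3 (-0.69, limma adjusted p = 0.0652), and CSLA03 without 7-9 cm replicate 1 (-0.85, limma adjusted p = 0.0771) or 3-5 cm replicate 1 or 3 (-0.93 and -0.92). TBL33 was above the reference in both sections, with 0.86, 2.44, 1.4 and 1.36 in the 7-9 cm section, against 3.64, 3.38, 3.36 and 3.44 in the 3-5 cm section (difference -1.94 ± 0.36). BGLU45 and BGLU46 were not called between the sections (-0.92 ± 0.48 and -1.37 ± 0.48, limma adjusted p = 0.26 and 0.0779). UGT72E1 was higher by 1.43 ± 0.34 (limma adjusted p = 0.0103).

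Other loci below their 3-5 cm level carry no gene name in the annotation used here. AT1G11920 had -1.75, -1.64, -1.7 and -0.56 in the 7-9 cm section, against 1.55, 1.76, 1.72 and 1.69 in the 3-5 cm section (difference -3.09 ± 0.21). AT1G09550 had -1.18, -1.39, -1 and -1.29, against 0.92, 0.82, 2.35 and 2.14 in the 3-5 cm section (difference -2.78 ± 0.27). For both, the sign over the reference turned on all arrays. AT3G16370 was below the reference throughout at 7-9 cm, with -4.099, -3.38, -3.4 and -2.98, against -0.38, 0.08, -0.50 and -0.36 in the 3-5 cm section (difference -3.174 ± 0.34). AT2G47360 had 0.89, 1.94, 0.8 and 0.30 in the 7-9 cm section, against 3.38, 4.28, 3.71 and 3.56 in the 3-5 cm section (difference -2.75 ± 0.38). Its rise over the reference at 7-9 cm was no longer called without replicate 2 (0.70, limma adjusted p = 0.0678).

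Among loci above their 3-5 cm level, AT3G03960 had 5.69, 4.70, 5 and 4.94 in the 7-9 cm section, against 2.93, 2.85, 3.12 and 3.42 in the 3-5 cm section (difference 2.004 ± 0.22, limma adjusted p = 3.73e-06). AT2G30690 had 1.12, 2.29, 2.3 and 1.76 in the 7-9 cm section, against 0.25, 0.19, -1.01 and -0.66 in the 3-5 cm section (difference 2.17 ± 0.27). The lowest 7-9 cm array was above the highest 3-5 cm array for both, which the choice of loci required. Over all probes 4060 of 25540 (15.9%) did not overlap between these sections. AT1G67920, AT1G03340 and AT1G64880 were higher by 1.94 ± 0.26, 2.09 ± 0.36 and 2.30 ± 0.42. AT4G34670 was higher by 2.41 ± 0.44 (limma adjusted p = 0.00131), with 0.55, -0.03, 1.9 and 1.003 in the 7-9 cm section, against -1.91, -1.64, -1.53 and -1.14 in the 3-5 cm section. Its replicate 2 value at 7-9 cm was in the pile-up, and its call over the reference (0.86 ± 0.31) ended without replicate 3 (0.62, limma adjusted p = 0.189) and without replicate 4 (0.67, limma adjusted p = 0.155). PSF2, chosen after its values were seen, was higher by 1.42 ± 0.20 (limma adjusted p = 8.31e-05), with 1.61, 1.196, 1.6 and 1.604 in the 7-9 cm section, against 0.15, -0.36, 0.27 and 0.26 in the 3-5 cm section.

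Members of the gene groups were also counted between 7-9 cm and 3-5 cm. Of the 22 division genes 1 was higher at 7-9 cm than at 3-5 cm and none lower, and the median difference was 0.05. For tetrapyrrole synthesis 1 of 10 was lower, PORB at -1.55 ± 0.38, and this call ended without 7-9 cm replicate 1 (-1.31, limma adjusted p = 0.0517) or 3 (-1.35, limma adjusted p = 0.052). Of the 21 photosynthesis genes 8 were lower and none higher (median difference -0.40), among them RCA (-1.51 ± 0.32), PSAN (-1.299 ± 0.30), CaS (-0.89 ± 0.19) and LHCB4.3 (-0.86 ± 0.23, and -0.73 without 3-5 cm replicate 4, limma adjusted p = 0.0792). These shares stand beside 4.56% of named probes lower and 3.53% higher, and the difference between groups was not tested. RCA had 0.33, 0.01, 0.81 and 0.90 on the 3-5 cm arrays, and PSAN had 0.33, 0.01, 0.20 and 0.39. Several of these values lay at or near the pile-ups of those arrays, as did the 0.01 of PORB on replicate 2. The differences of these 3 genes without pile-up values are not given here. None of the amino acid breakdown genes or autophagy genes was called between these sections. In the cold and dehydration list LTI30 was higher by 0.85 ± 0.19. XERICO (0.58 ± 0.18) and ALDH7B4 (0.61 ± 0.16) were also called higher, but not without some single arrays (limma adjusted p of up to 0.147 and 0.0629).

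Along the 10 cm stem the fitted means of these genes took different courses. OPS had -0.38, -1.84, -3.88 and -4.19 at 0-3, 3-5, 5-7 and 7-9 cm. EXPA8 had 1.63, 2.09, -1.82 and -2.14 at the same positions. LTI30 had 0.74, 2.06, 2.26 and 2.91, and AT3G03960 had 2.99, 3.08, 5.18 and 5.08. The fitted mean of OPS was lower and that of LTI30 higher in each section than in the one above it. Of these steps only the last, from 5-7 cm to 7-9 cm, was tested, and it was not called for either gene.

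**Figure D4:**
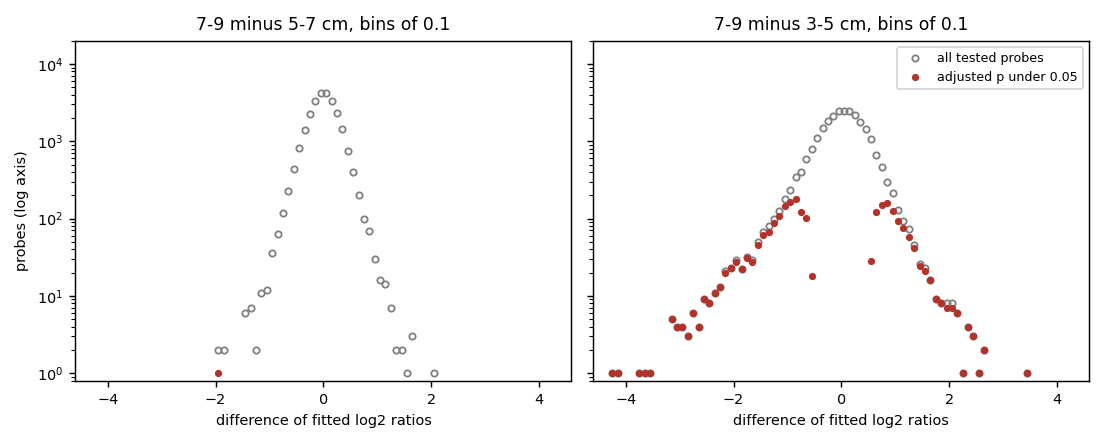
Number of probes (y axis, log scale) in bins of 0.1 of the difference of fitted log2 ratios (x axis), for 7-9 minus 5-7 cm (left) and 7-9 minus 3-5 cm (right); open circles are all 25720 tested probes and red points those with an adjusted p under 0.05. A single red point, 1 probe, appears on the left, against 2283 probes on the right, where the longer arm is on the side of lower levels at 7-9 cm.

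**Figure D5:**
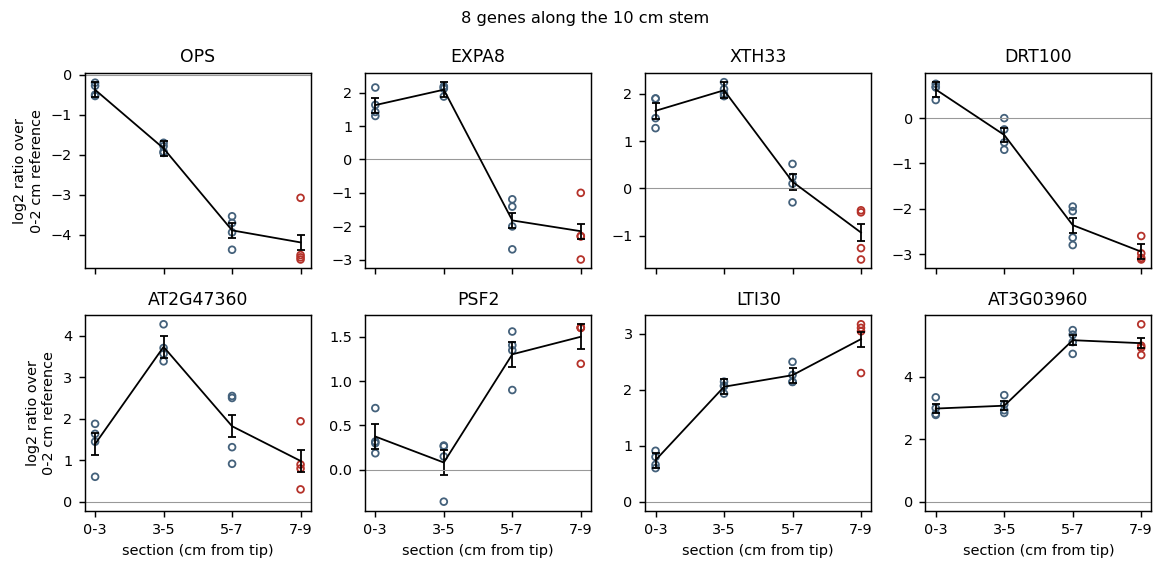
Log2 ratios over the 0-2 cm reference (y axis) of 8 genes in the 4 sections of the 10 cm stem (x axis). The x axis is in cm from the tip, and each gene has a y scale of its own. Circles are arrays (7-9 cm in red, n = 4 arrays a section). The line joins fitted means ± SE, with the SE resting on the arrays of all sections. EXPA8 and XTH33 lie above 0 at 3-5 cm and, at 7-9 cm, below it, while AT3G03960 is above 4 on all 5-7 and 7-9 cm arrays.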

How the data were processed

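The authors hybridised and scanned the spotted arrays (ScanArray Express scanner, per the labels) and deposited log ratios, taken here as log2. How background was corrected and the arrays normalized, and with which software, is not given in the sources used here. Probe names came from the platform annotation and the RefSeq table (TAIR10.1, names only). From the deposited log2 values, a model with a mean for each of 5 sections and a dye term was fitted to all 20 arrays with limma 3.58.1 in R 4.3.3 (lmFit, eBayes, 14 residual degrees of freedom), over probes measured on at least 3 of 4 arrays of every section. P-values were Benjamini-Hochberg adjusted over 25720 probes and called under 0.05; the script was tested on simulated data. Each locus is represented by the probe measured on most arrays, then the lower spot number. Text genes were the 12 largest rises and 12 largest falls with 1 sign on all arrays, and the 6 largest differences each way from 3-5 cm. These differences were taken among called loci whose arrays did not overlap between the sections. Up to 4 called members of each gene list, the one going most against it, and cell type markers were added. The rule found no gene between 7-9 and 5-7 cm. Of the gene lists, 24 were written after the files had been seen, and genes named from these lists or outside the rule were chosen after their values were seen. The members and all lists were chosen with earlier results of these data known. Alternatives changed dye coding, normalization, arrays, probe filter and threshold. Promoter motifs were not analysed here.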

Additional observations from a re-analysis of the deposited data

Results flagged for a closer look

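At 12 of the 137 genes named here that had values on all 4 arrays, 1 array of the 7-9 cm section lay apart from the others, its gap to the nearest being a larger share of the whole range than Dixon's 95% limit for 4 values. Chance alone flags about 1 in 20 groups. Replicate 2 was the distant array for PSF2 (1.196), OPS (-3.07), GAMMA-VPE (2.32) and AT1G12570 (-5.04). Replicate 4 was it for AT1G11920 (-0.56), CRT1b (-1.20), AT1G03740 (3.26) and BGLU33 (0.98). Replicate 3, with values in steps of 0.1, was it for LTI30 (2.3), PRK (-0.9), IAA29 (0.2) and ANX1 (1.7). The sign over the reference was the same on all 4 arrays for each of the 12.

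Among probes called in limma between 7-9 cm and 3-5 cm, 155 also had calls over the reference in opposite directions in these sections. They include those of 39 named loci, 28 of which were lower at 7-9 cm. The genes given in the text include 5 of these loci. A called difference between the sections was a condition of this choice. The difference was -4.23 for EXPA8, -3.09 for AT1G11920, -3.005 for XTH33 and -2.78 for AT1G09550, all lower at 7-9 cm. AT4G34670 went the other way, at 2.41.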

How the results depend on the processing

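The count over the reference stayed within 1.5 times 11163 under the other normalizations, dye codings, probe filters and thresholds tried (8215 to 11798) and without any 1 array (9377 to 9913). It was 7116 with only arrays at 62 and 60, 6646 with only arrays at 63 and 60 and 7006 without the arrays of conflicting dyes. The count of 1 between 7-9 cm and 5-7 cm became 0 with arrays centred and scaled, with only arrays at 62 and 60, with only arrays at 63 and 60 and at an adjusted p under 0.01, 2 with block medians subtracted, 4 without the arrays of conflicting dyes, and 0 to 3 without any 1 array. The 2283 probes between 7-9 cm and 3-5 cm became 973 with arrays centred and scaled, 1520 without the arrays of conflicting dyes, 1007 at an adjusted p under 0.01, and 1486 to 2641 without any 1 array. No value for this comparison could be had at a single scanner setting, since no 3-5 cm array was scanned at 62 and 60 or 63 and 60. With a replicate block the counts were 11050, 1 and 2139. Same-numbered arrays of 7-9 and 5-7 cm had correlations of residuals of 0.0046, 0.158, 0.248 and 0.199. Differently numbered arrays had -0.229 to 0.255, mostly below 0. Without the dye term the same-numbered values were 0.242, 0.365, 0.455 and 0.434, against -0.389 to 0.264. Same-numbered arrays also shared a scanner setting. Pairing by number can therefore not be excluded, and the main fit did not include it. With pile-up values left out, an alternative chosen after seeing the data, the counts were 11179, 1 and 2272. Of 200 genes named in the text or by the rule and called over the reference, 199 kept their direction under every alternative and 126 stayed called under every one. The exception in direction was WRKY6 (0.57), at -0.0088 on arrays at 63 and 60. The causes were not tested. How far spots were above background is unknown, as intensities were not used here, and 4 arrays a section limit the precision.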

Other observations

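A few loci with large values, chosen after their values were seen, lie side by side in the genome. Over all probes 43.4% were called, and 14.5% were called and at least 2-fold. Of 3385 neighbouring pairs with both loci tested, 658 had both called, 351 in the same direction and 307 in opposite directions. Whether neighbours were called together more often than other pairs was not tested. Both loci were called and at least 2-fold in 70 pairs. Of these pairs 41 went in the same direction and 29 in opposite directions. BGLU33, AT2G32870 and AT2G32880 form a run of 3, at 1.53, 4.17 and 4.92. The Aurora kinase gene AUR2 and its neighbour AT2G25890 were at -2.04 and -2.27. EXPA8 and its neighbour AT2G40620 went opposite ways, at -2.14 and 2.41. Cross-hybridisation between neighbouring copies was not tested.

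Other groups were split or changed little. Of 8 tetraspanins, small membrane proteins, 2 rose and 4 fell: TET8 had 1.43, 2.03, 1.2 and 2.48 (fitted mean 1.78 ± 0.15) and TET3 averaged 1.68 ± 0.29, whereas TET13 averaged -1.29 ± 0.22. Among 13 actin, myosin and actin-binding genes 1 rose and 4 fell, with ACT11 at -1.18 ± 0.24 and ACT12 at -1.28 ± 0.22. Of 11 defensins and other small cysteine-rich proteins 3 rose and 3 fell. LCR69 had -3.43, -3.06, -1.9 and -2.60 (fitted mean -2.75 ± 0.23), below 0 on all arrays, while LCR67 averaged 1.07 ± 0.15 on 1 probe and 0.42 ± 0.17 on the other (limma adjusted p = 0.0485). CYP78A9, a cytochrome P450 linked to seed and fruit growth, had 1.18, 2.38, 0.6 and 1.62 (fitted mean 1.44 ± 0.28).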
